A study of Homo sapiens with 4 samples.

Results

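The proteasome genes were taken from the deposited table as the protein-coding rows whose symbol is PSM, then a letter from A to G, then a digit. The rule gave 49 of 58037 rows. One of them, PSMC3IP, is a recombination factor named after its binding to the ATPase PSMC3 and is no part of the proteasome, which left 48 proteasome genes. The authors' deposited table gives an adjusted p for 45 of these, while PSMA8, PSMB8 and PSMB11 had too few reads for one. In K562 cells with less DROSHA, 0 of the 45 passed an adjusted p of 0.05 in either direction, against 0.351% of all tested genes (0.33% higher and 0.0211% lower). In bulk RNA, a change in a few cells and a smaller one in all cells cannot be told apart. The median log2 fold change of the proteasome genes was -0.05 in the authors' deposited table, against -0.17 for cytosolic and -0.18 for mitochondrial ribosomal protein genes.

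K562 is a human erythroleukaemia line, and DROSHA is the nuclear ribonuclease that crops primary microRNA transcripts. Total RNA was sequenced from 2 control libraries, whose cells received a CRISPR lentivirus with a non-specific target, and from 2 knockdown libraries, whose cells received one against DROSHA. Both groups were selected with puromycin at 2.5 ng/μl and used at passages 25 to 30. Neither the guide sequences nor any cloning of the cells is described in the labels, so the populations may hold edited and unedited cells.

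The table prints no value for a single library, but its means carry 15 significant digits, and the whole reads behind them could be solved for all 49 rows. Values below are these recovered reads divided by the authors' size factors, called normalised reads. The size factors are not printed either. They were inferred from the most frequent low means, each taken as 1 read in 1 library. The libraries could not be tied to replicate numbers and are called the deeper and the shallower library of each group. They held 36487872 and 27741033 recovered reads on the control side and 30933185 and 24167906 on the knockdown side. DROSHA had 6107 and 6077 normalised reads in the controls and 2734 and 2770 in the knockdown, with a log2 fold change of -1.15 in the authors' deposited table (adjusted p = 8.1e-14). The table does not state the direction of its fold change, so the side of each library and each direction below rest on reading DROSHA as lower in the knockdown. The labels do not say whether replicates were separate cultures, so the spread behind each p-value may be that of technical repeats. The embryonic globin HBE1, which marks the erythroid line, had a mean of 156200 in the authors' deposited table. Of the immune markers, HLA-DRA had a mean of 0 and CD3E one of 5.27, while the pan-leukocyte gene PTPRC had a mean of 2406 in the authors' deposited table. The 5 immune markers summed to 2512 and 2812 normalised reads in the control libraries and to 2363 and 2083 in the knockdown libraries. The 4 fibroblast and epithelial markers summed to 7163 and 7116 against 6467 and 7823. Nearly all of this came from the epithelial genes KRT8 and EPCAM, with means of 4291 and 2755. The fibroblast genes COL1A1 and COL1A2 had means of 14.3 and 81.8, all in the authors' deposited table.

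The proteasome is the chamber in which cells degrade proteins tagged with ubiquitin. Its 20S core is a stack of rings of alpha subunits, which gate the entrance, and beta subunits, which include the proteolytic sites. The 19S regulatory particle, with a ring of ATPases and a set of non-ATPase subunits, binds, unfolds and feeds in the substrate. Subunit mRNAs are known to be controlled together by the transcription factor NFE2L1 when proteasome activity drops. It binds antioxidant response elements in their promoters. Immune cells and cells under interferon exchange catalytic beta subunits for inducible ones.

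The only annotated microRNA hairpin within a proteasome gene was MIR7703, in an exon of PSME2 on the same strand, at chr14:24143489-24143565 in hg38. Its mature sequence from RefSeq (GRCh38.p14) is shown because a hairpin is what DROSHA cuts, with the seed, bases 2 to 8, in capitals.
hsa-miR-7703: uUGCACUCuggccuucucccagg
PSME2, a subunit of the interferon-inducible activator that caps the 20S core, had 2411 and 2515 normalised reads in the control and 2376 and 2454 in the knockdown libraries. These 4 values overlapped between groups, and the log2 fold change was -0.03 in the authors' deposited table (adjusted p = 0.994). The hairpin itself was not analysed here.

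RefSeq promoter windows of 250 bases before and 50 after a gene's start were found for 42 of the 48 proteasome genes (51 windows, GRCh38.p14). The core of the antioxidant response element, written TGACNNNGC and searched on both strands, was in 15 of the 51 windows, or 29.4%, against 13.3% of 35116 windows of all genes. Windows with the core, in capitals, are shown for the 2 tested proteasome genes with the highest fold changes and for 3 others.
PSMC5, chr17:63827656-63827680, minus strand: ggcggcgcTGACACAGCagatccgg
PSMD12, chr17:67366726-67366750, minus strand: acaaaaccTGACGCTGCaggctgga
PSME4, chr2:53971011-53971035, plus strand: tctgctggTGACGCTGCagccgccg
PSMB3, chr17:38752629-38752653, plus strand: ctccgtttTGACTTTGCaaccaaac
PSMD3, chr17:39980762-39980786, plus strand: ccctttgtTGACTCGGCcatcggcc
The PSMC5 core belongs to the more downstream of its 2 RefSeq starts, within the gene. The 15 tested genes with the core had a median log2 fold change of -0.08, from -0.24 to 0.61, and the 24 without it -0.03, from -0.37 to 0.16. The ETS-type motif CCGGAA was in 43.1% of the members' windows against 17.2% of all windows, and the NF-Y box CCAAT in 39.2% against 34.6%. Neither motif holds the other, though matches can share bases. Genes with CCGGAA had a median log2 fold change of 0.01 (21 genes, from -0.37 to 0.61) and those without it -0.11 (18 genes, from -0.24 to 0.12). For CCAAT the medians were -0.08 with it (19 genes, from -0.37 to 0.61) and -0.03 without it (20 genes, from -0.26 to 0.45). These matches are letters in a window and were not tied to binding.

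Proteasome mRNAs were abundant and short. Their median level was 3645 normalised reads per kilobase of principal transcript, between 27035 for cytosolic and 2020 for mitochondrial ribosomal protein mRNAs, and above the 416 of all tested protein-coding genes. The median principal transcript was 1562 bases long, against 835 and 1357 for the ribosomal lists and 2936 for protein-coding genes. PSMB1, a non-catalytic beta subunit, had the highest level at 15431 per kilobase, followed by the beta subunits PSMB3 at 10597 and PSMB4 at 9293. The 7 alpha subunits of the standard ring lay between 2438 (PSMA5) and 6758 (PSMA7). PSMC1 was the lowest ATPase at 242, while the other ATPases lay between 1757 (PSMC5) and 4718 (PSMC3). The transcript length used for PSMC1 was 4448 bases, and its processed pseudogene PSMC1P1 had a mean of 264 in the authors' deposited table, and reads of both rows may be split between them. Of 31 pseudogene rows of this family, 16 had reads and PSMC1P1 alone was tested.

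**Figure D1:**
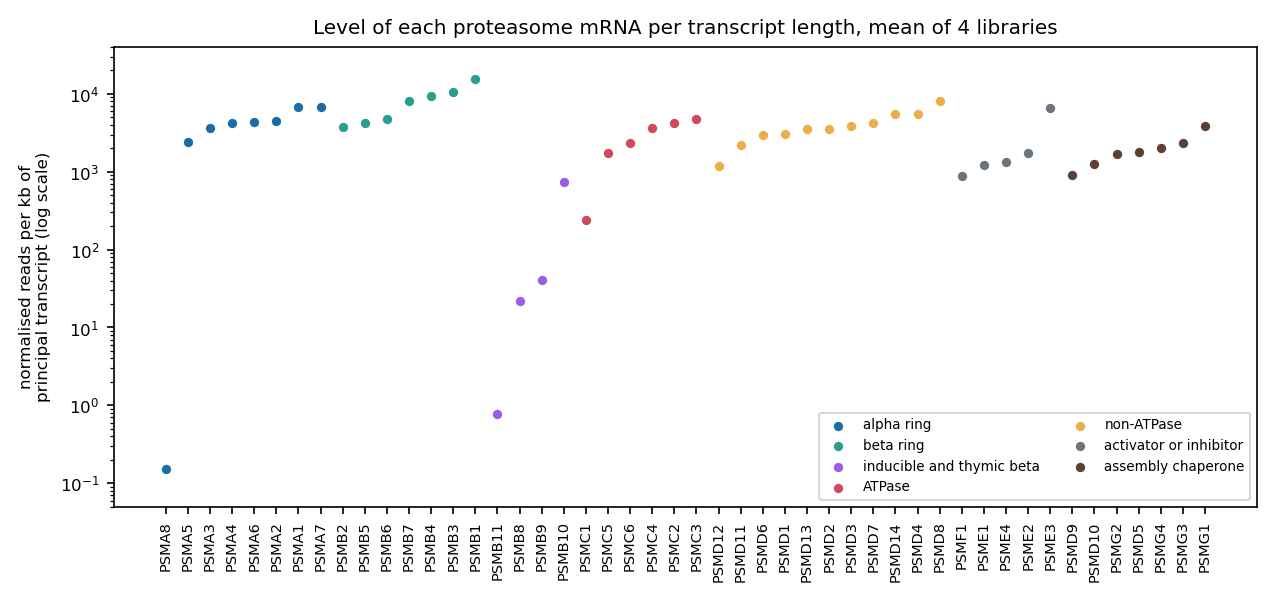
Normalised reads per kilobase of principal transcript, mean of 4 libraries, on a log axis, for each of the 48 proteasome genes, coloured by role. PSMB1 is the highest at 15431, PSMB10, PSMC1, PSMB9 and PSMB8 lie at 744, 242, 40.2 and 21.7, and PSMA8 and PSMB11 fall below all others.

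The alpha ring varied little between groups. Of its 7 tested members 0 passed, 1 lay above 0, and the median log2 fold change was -0.06 in the authors' deposited table. PSMA6, the lowest, had 4459 and 5396 normalised reads in the control and 3979 and 4265 in the knockdown libraries. Both knockdown values lay below both controls, though the controls differed more from each other than the deeper control did from the nearer knockdown library, and the log2 fold change was -0.26 in the authors' deposited table (adjusted p = 0.780). PSMA4, the highest, had 10192 and 12801 in the control and 10921 and 12122 in the knockdown libraries, with a log2 fold change of 0.00 in the authors' deposited table (adjusted p = 0.999). The PSMA4 controls enclosed both knockdown libraries. PSMA1, PSMA2, PSMA3, PSMA5 and PSMA7 had overlapping groups, with log2 fold changes from -0.13 for PSMA1 to -0.00 for PSMA2 in the authors' deposited table. PSMA1, PSMA2 and PSMA6 each share their locus and strand with another annotated protein-coding row of 9015, 5494 and 6077 mean reads in the authors' deposited table, so their counts may be split. PSMA8, an alpha subunit of the testis, had 1 read, in the shallower control library.

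The constitutive beta ring held members on both sides of 0. Of its 7 members 0 passed, 3 lay above 0, and the median log2 fold change was -0.16 in the authors' deposited table. PSMB1 had 14824 and 16603 normalised reads in the control and 13537 and 12314 in the knockdown libraries. Its groups did not overlap, and the log2 fold change was -0.28 in the authors' deposited table (adjusted p = 0.669). PSMB7, which carries the trypsin-like site, had 7017 and 7691 against 7989 and 9004, all knockdown values above the controls, with a log2 fold change of 0.21 in the authors' deposited table (adjusted p = 0.835). PSMB5, which carries the chymotrypsin-like site, had 5533 and 4970 against 5851 and 5398. These overlapped, at a log2 fold change of 0.10 in the authors' deposited table (adjusted p = 0.957). PSMB6, which carries the caspase-like site, had 4327 and 4170 against 3474 and 4159. The shallower knockdown library lay just below the lower control, and the log2 fold change was -0.16 in the authors' deposited table (adjusted p = 0.918). Both PSMB3 and PSMB4 lay lower in the knockdown without overlap, at -0.18 and -0.20 in the authors' deposited table, and PSMB2 overlapped, at 0.03.

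The inducible catalytic subunits were far below the constitutive ones per kilobase. PSMB10 stood at 744 against 8087 for its constitutive counterpart PSMB7, PSMB9 at 40.2 against 4733 for PSMB6, and PSMB8 at 21.7 against 4202 for PSMB5. PSMB10 had 966 and 985 normalised reads in the control and 833 and 842 in the knockdown libraries. The gap between groups exceeded the spread within either, and the log2 fold change was -0.22 in the authors' deposited table (adjusted p = 0.868). It shares its locus and strand with another protein-coding row of 1160 mean reads in the authors' deposited table. PSMB9 had 30.9 and 33.8 against 30.2 and 30.7, at a log2 fold change of -0.08 in the authors' deposited table (adjusted p = 0.997), from 25 to 38 reads a library. PSMB8 had 20 and 21 reads in the control and 21 and 32 in the knockdown libraries, a mean of 24.4 normalised reads, below the 25.7 at which adjusted p-values began in the authors' deposited table. PSMB8 and PSMB9 overlap on opposite strands in the major histocompatibility region of chromosome 6, so their few reads may be shared. PSMB11, the subunit of thymic cortical epithelium, had 6 reads, all in the shallower control library.

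The 6 ATPases, which form the unfolding ring, held the largest fold change of the 45 tested genes and otherwise values below 0. Of the 6, 0 passed, 1 lay above 0, and the median log2 fold change was -0.06 in the authors' deposited table. PSMC5, at chr17:63827152-63832026 on the plus strand, had 2300 and 2093 normalised reads in the control and 2745 and 3962 in the knockdown libraries. Both knockdown values were above both controls, but the knockdown libraries were further apart than in any other tested member, by 0.53 on the log2 scale. Its log2 fold change was 0.61 in the authors' deposited table (adjusted p = 0.136). A limma fit to the recovered reads gave 0.59 (SE 0.16, 95% interval 0.24 to 0.93, adjusted p = 0.277). Without the deeper knockdown library the limma value was 0.85 (adjusted p = 0.000413), a call that then rests on 1 knockdown library, and without the shallower one it was 0.32 (adjusted p = 0.457). PSMC5 overlaps FTSJ3, an rRNA methyltransferase gene, on the opposite strand. FTSJ3 had 3467 and 3308 normalised reads in the control and 1940 and 4165 in the knockdown libraries, so the same shallower knockdown library was the highest of the 4 for both genes. The strand setting of the counting is not given in the sources used here, and the part of FTSJ3 reads in the PSMC5 values was not tested. PSMC2, the lowest ATPase, had 12557 and 13444 against 10834 and 11410. Its groups did not overlap, and the log2 fold change was -0.23 in the authors' deposited table (adjusted p = 0.780). Of the others, PSMC4 lay lower without overlap, at -0.21 in the authors' deposited table, and PSMC1, PSMC3 and PSMC6 overlapped, at -0.03, -0.09 and -0.04.

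Non-ATPase subunits of the 19S particle spread most evenly about 0. Of 11 members 0 passed, 6 lay above 0, and the median log2 fold change was 0.01 in the authors' deposited table. PSMD12, a scaffold subunit of the lid, had 4159 and 4807 normalised reads in the control and 5594 and 6623 in the knockdown libraries. The groups did not overlap, and the log2 fold change was 0.45 in the authors' deposited table (adjusted p = 0.263). The limma fit gave 0.44 (SE 0.14, 95% interval 0.16 to 0.73, adjusted p = 0.346). PSMD8, another lid subunit, had the lowest fold change of the 45 tested genes, with 13925 and 14605 normalised reads in the control and 10101 and 11913 in the knockdown libraries. Each knockdown value lay below both controls, and the log2 fold change was -0.37 in the authors' deposited table (adjusted p = 0.413). The limma fit for PSMD8 gave -0.38 (SE 0.13, 95% interval -0.66 to -0.10, adjusted p = 0.402). Lid subunits of the same particle thus held both the second highest and the lowest fold change of the 45 genes. PSMD14, the deubiquitinase of the lid, had 9902 and 11443 against 10788 and 10647, and its groups overlapped. PSMD2 and PSMD13 lay higher without overlap, PSMD3 and PSMD6 lower without overlap, and PSMD1, PSMD4, PSMD7 and PSMD11 overlapped, with log2 fold changes from -0.24 to 0.14 over these 8 genes in the authors' deposited table.

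**Figure D2:**
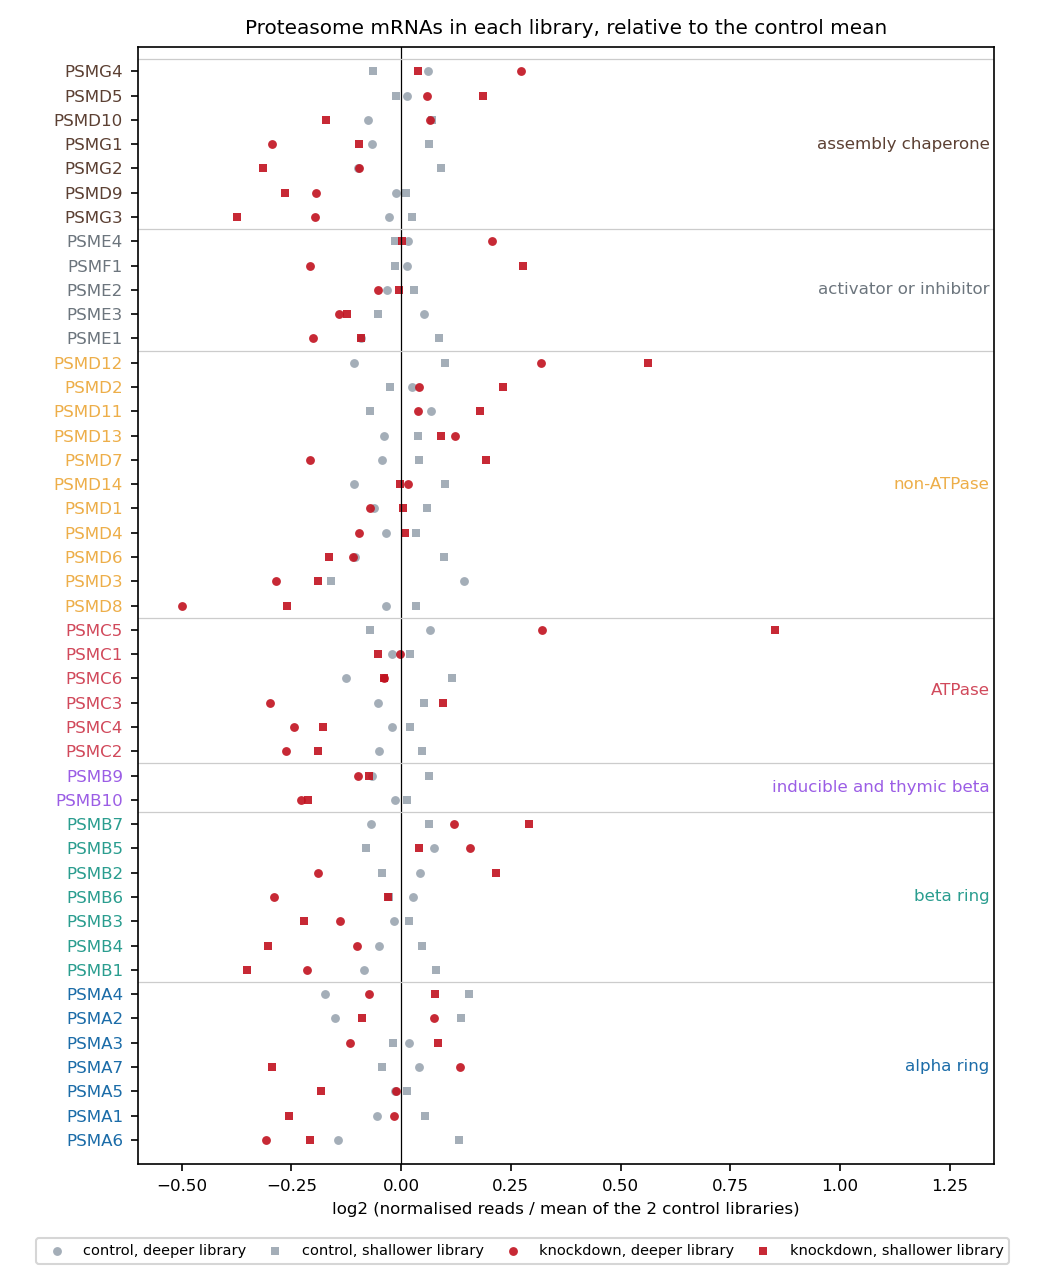
Log2 ratio of each library's normalised reads to the mean of the 2 control libraries, for the 45 tested proteasome genes, by role. Grey marks are control and red marks knockdown libraries. PSMC5 and PSMD12 stand to the right, PSMD8 to the left, and most other marks lie close to 0. The groups do not overlap for 22 of the 45 genes, counting PSMC5, PSMD12 and PSMD8, against 41.5% of all 14116 tested genes with recovered reads.

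Activators and the inhibitor of the 20S core had 0 of 5 members past the threshold and a median log2 fold change of -0.03 in the authors' deposited table. PSME4, the large activator PA200, was the highest, with 9179 and 8993 normalised reads in the control and 10494 and 9103 in the knockdown libraries. Its groups overlapped, at a log2 fold change of 0.11 in the authors' deposited table (adjusted p = 0.947). PSME1, the partner of PSME2, was the lowest, with 1228 and 1390 against 1139 and 1228. The groups met at the deeper control and shallower knockdown library, at a log2 fold change of -0.14 in the authors' deposited table (adjusted p = 0.930). PSME3, the nuclear activator, lay lower without overlap, and PSMF1, the inhibitor, overlapped.

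The assembly chaperones, which build the rings and are no part of the finished particle, had 0 of 7 members past the threshold and a median log2 fold change of -0.19 in the authors' deposited table. Of the 4 that assemble the 20S core, PSMG3 was the lowest, with 2543 and 2637 normalised reads in the control and 2261 and 2000 in the knockdown libraries. Its groups did not overlap, and the log2 fold change was -0.28 in the authors' deposited table (adjusted p = 0.712). Its partner PSMG4 was the highest, with 1648 and 1513 against 1911 and 1624. There the groups overlapped, at a log2 fold change of 0.16 in the authors' deposited table (adjusted p = 0.920). The pair PSMG1 and PSMG2 had log2 fold changes of -0.19 and -0.20 in the authors' deposited table (adjusted p = 0.867 and 0.878), and only PSMG1 had groups that did not overlap. PSMG1 had 8368 and 9157 against 7152 and 8197, and PSMG2 had 2829 and 3222 against 2832 and 2434. Of the 3 that assemble the ATPase ring, PSMD9 had 2693 and 2738 against 2373 and 2261, lower without overlap, at a log2 fold change of -0.23 in the authors' deposited table (adjusted p = 0.806). PSMD9 shares its locus and strand with the protein-coding rows AC069503.2 and WDR66, so its counts may be split. Their means were 1757.5 and 1174.2 in the authors' deposited table. PSMD5 had 6045 and 5941 against 6248 and 6822, higher without overlap, at 0.12 in the authors' deposited table (adjusted p = 0.929). PSMD10, also called gankyrin, had 1905 and 2107 against 2098 and 1781. It overlapped, at -0.05 in the authors' deposited table (adjusted p = 0.986).

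**Figure D3:**
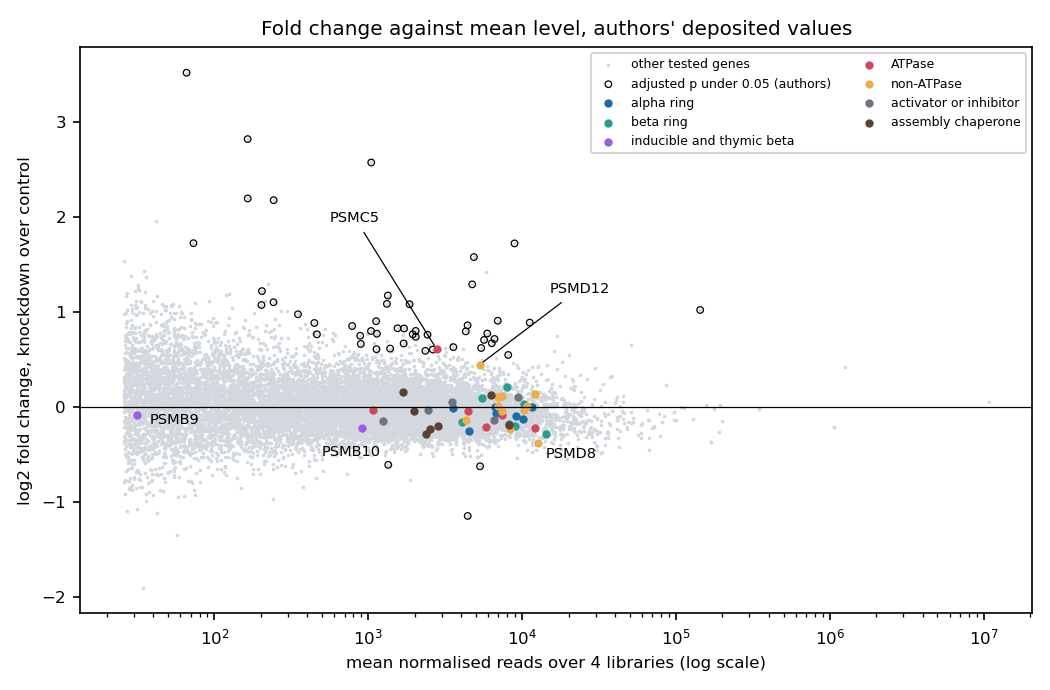
Log2 fold change, knockdown over control, against the mean of normalised reads on a log axis, both from the authors' deposited table, for the 14231 tested genes. Open circles have an adjusted p under 0.05; the coloured proteasome genes lie within the cloud of grey points and none carries a circle.

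Across the family, the median fold change between groups lay between the median differences of single libraries within each group. The median absolute log2 fold change of the 45 genes was 0.13, against a median absolute log2 difference of 0.10 between the 2 control libraries and 0.15 between the 2 knockdown libraries. A fold change compares groups of 2 libraries, which vary less than single libraries, so these sizes are not like for like. The groups did not overlap for 22 of the 45 genes, 6 higher and 16 lower in the knockdown. Over all 14116 tested genes with recovered reads, 18.6% were higher and 22.9% lower without overlap, 41.5% in all. Scaling to the sum of all recovered reads gave 7 higher and 12 lower, against 3266 higher and 2357 lower among the 14116 genes, where the authors' size factors gave 2623 and 3236. At an unadjusted p under 0.05, 4 of the 45 were counted with the p implied by the authors' deposited table, against 6.8% of all tested genes. For genes that share an adjusted p, the implied p is only an upper bound. With limma there were 5 at that unadjusted p, against 9.66%, and 0 after adjustment over all genes, against 0.191%. Summed over the 48 genes, the control libraries held 286712 and 299582 normalised reads and the knockdown libraries 276062 and 286620. The knockdown sum was 96.0% of the control sum over the family, with both knockdown libraries below both controls, the shallower one by little. By role the share ran from 87.0% for the inducible and thymic beta subunits through 93.8% for the ATPases and 93.7% for the chaperones to 98.4% for the non-ATPases and 100.3% for the activators and inhibitor. The 87.0% rested almost wholly on PSMB10, with a mean of 907 normalised reads against 31.4 for PSMB9, 24.4 for PSMB8 and 1.63 for PSMB11. PSMB8 went the other way, at a log2 fold change of 0.58 in the authors' deposited table.

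The proteasome mRNAs were set beside ribosomal protein mRNAs as another group of short, abundant mRNAs. Of 77 tested cytosolic ribosomal protein genes 1 was called lower and 0 higher, and of 78 mitochondrial ones 1 was called higher and 0 lower, against 0.33% higher and 0.0211% lower among all tested genes. Of the proteasome genes 30 of 45 lay below 0, of the cytosolic ribosomal proteins 59 of 77, of the mitochondrial ones 67 of 78, and of all tested protein-coding genes 58.2%. The proteasome median of -0.05 lay beside the -0.04 of the protein-coding genes, and the interquartile range was 0.22 against 0.27, all in the authors' deposited table. The proteasome median from recovered group means was -0.108 without the deeper control library and -0.0952 without the shallower knockdown library. Medians of the other lists without these libraries are not given, so these values cannot be set beside theirs. Reads were recovered for 44 of the cytosolic ribosomal protein genes, whose sum in the knockdown was 90.9% of the control, with 793359 and 852407 normalised reads against 750292 and 745205. For the 78 mitochondrial ones the sum was 89.3%, with 265636 and 287428 against 241596 and 252428. Both knockdown libraries lay below both controls in each of these sums. Over the 45 proteasome genes, Spearman's rho between principal transcript length and log2 fold change was 0.32, against 0.17 over 11384 protein-coding genes. These are correlations across genes of the same libraries and serve as a description. The difference between lists was not tested, since the lists were chosen with earlier values known.

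**Figure D4:**
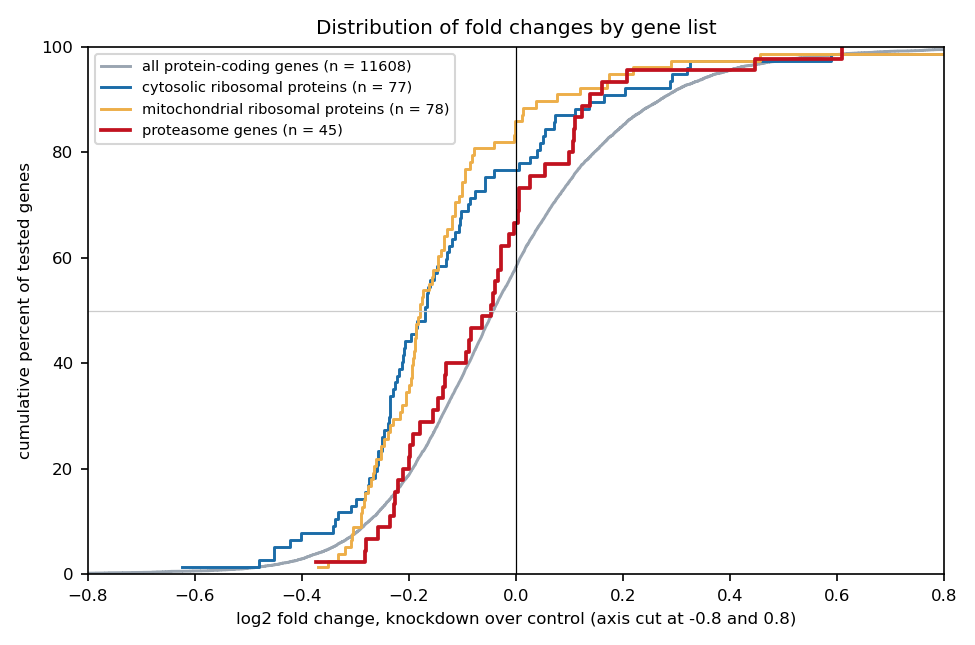
Cumulative percent of tested genes against log2 fold change in the authors' deposited table, for proteasome genes (45), cytosolic (77) and mitochondrial (78) ribosomal protein genes and all tested protein-coding genes (11608). The proteasome curve crosses 50% beside the curve of all protein-coding genes, at -0.05 and -0.04, while both ribosomal curves cross it to the left, at -0.17 and -0.18.

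Other genes of the pathway were counted from a list. Of 57 listed genes, 53 were tested and 0 were called, against 0.351% of all tested genes. The median log2 fold change was -0.01 for 14 partners of the particle, -0.02 for 13 regulators of proteasome genes, -0.05 for 18 ubiquitin genes and shuttle factors and 0.04 for 8 genes of antigen processing, in the authors' deposited table. SHFM1, also known as SEM1, the smallest lid subunit, had 2522 and 2518 normalised reads in the control and 3002 and 4352 in the knockdown libraries. As for PSMC5, the shallower knockdown library stood highest, and the log2 fold change was 0.54 in the authors' deposited table (adjusted p = 0.228). NFYA, the DNA-binding NF-Y subunit, had 1407 and 1586 against 1972 and 1970, without overlap, at 0.40 in the authors' deposited table (adjusted p = 0.433). NFE2L1 itself had 4187 and 3751 against 3175 and 4535, which overlapped, at -0.04 in the authors' deposited table (adjusted p = 0.989). Its relative NFE2L2 had 3491 and 3766 against 4247 and 4500, without overlap, at 0.27 in the authors' deposited table (adjusted p = 0.704). The class I genes HLA-B and HLA-C were low, with means of 19.4 and 27.6, while TAP1, a chain of the peptide transporter that lies beside PSMB9, had 144, all in the authors' deposited table. Levels on the antigen processing list varied widely, with means of 1589 for TAP2 and 15261 for B2M in the authors' deposited table. PSMC3IP, the row that is no proteasome gene, had 979 and 968 against 938 and 1426, which overlapped, at 0.28 in the authors' deposited table (adjusted p = 0.860).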

How the data were processed

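The authors deposited 1 table of their comparison of 2 control with 2 knockdown K562 libraries. Per the file headers, each gene has a mean of normalised counts over the 4 libraries (a signal), a log2 value for the fold change, and a p-value after adjustment. Library preparation used a stranded kit for total RNA (TruSeq), per the labels' protocols. STAR 2.6.0a, Bowtie2 2.3.4.1 and DESeq2 1.24.0, with hg38, are named in the submitters' processing notes. Which program counted genes, and with what strand setting, is not given in the sources used here. The table has 0 columns for single libraries, and 1 further log2 column deposited by the authors, of unstated assay, was not used.

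From the deposited means, whole reads in each library were solved, accepting a gene only where exactly 1 combination of reads within the searched range matched the mean. The log2 fold change also had to be one that the count model could give at some assumed spread between libraries, within 0.0001. Below a mean of 30, as for PSMB8, PSMB11 and PSMA8, the fold change was not used. The search gave 14116 of the 14231 genes tested. Of the rest, 78 had several solutions, 2 had none, and 35 had means above the limit of 60000. As a check, the test statistic rebuilt from the reads came within 1% of the authors' for 264 of 265 genes. The check was limited to genes whose adjusted p no other gene shared, with further limits on the p-value and the spread. Among the tested proteasome genes only PSMD12 and PSMG3 had an adjusted p of their own, so the check hardly covered the family. The main test is the authors' adjusted p at 0.05. Unadjusted p-values were implied by undoing its adjustment over all tested genes. Where genes shared an adjusted p, as most proteasome genes did, this gave only the largest value that each could have. limma 3.58.1 (R 4.3.3, trend, log2 of normalised reads + 1, adjusted over all genes) was an alternative, checked on simulated data. Other steps used scipy 1.17.1, pandas 2.3.3 and numpy 2.4.6 under Python 3.11.15. The filter on low values lay at a mean of 25.7.

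Coordinates and transcript lengths came from GENCODE annotation on hg38. Length is the median over a gene's principal transcripts. It replaced the longest principal transcript after values with that length had been seen. The search for whole reads was likewise widened after a first run left rows unsolved. The members, lists, tests and alternatives were chosen with earlier results of these data known. Genes described in full are the highest and lowest of each role, those with an adjusted p under 0.5, the inducible beta subunits with their counterparts, and the chaperones. Beyond that rule, PSMA8, PSMB11, PSME2, PSMD14, PSMC3IP, FTSJ3, TAP1, TAP2, B2M, HLA-B and HLA-C were named after their values were seen. Values of 3 genes from the marker and pathway lists are not reported here. Alternatives were other thresholds, adjustment over protein-coding genes, centring, pseudocount, members, scaling and leaving out each library.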

Additional observations from a re-analysis of the deposited data

How the results depend on the processing

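Counts of 0 higher and 0 lower proteasome genes held at adjusted p thresholds of 0.01 and 0.1, with a fold requirement, with adjustment over protein-coding genes and with limma. Leaving out each library in turn gave 0 to 1 higher and 0 lower, the 1 being PSMC5 without the deeper knockdown library, where the lone knockdown library is assumed to vary like the controls (0.85, limma adjusted p = 0.000413; range over its alternatives 0.32 to 0.85). The median log2 fold change of -0.05 was -0.0051 when re-centred on protein-coding genes, and ran from -0.108 (without the deeper control library) to -0.0191 with each library left out, with -0.0952 without the shallower knockdown library; other choices of members and pseudocounts kept it between -0.06 and -0.04. Leaving out a library gave 0.32 to 0.57 for PSMD12 and -0.50 to -0.26 for PSMD8, with the direction kept. The count of genes whose groups do not overlap was 19 of 45 when scaled to the sum of recovered reads, against 22 of 45 with the size factors. Over all 14116 tested genes with recovered reads, the size factors gave 41.5%, and the other scaling gave 3266 higher and 2357 lower. DROSHA was -1.10 when re-centred. With the longest principal transcript, an alternative chosen after seeing the data, median levels per kilobase were 3524 for proteasome, 21831 for cytosolic and 1987 for mitochondrial ribosomal protein mRNAs, in the same order, and the rho with length over the proteasome genes was 0.31. No paired analysis was possible because the recovered libraries carry no replicate number; the fit with a replicate block was therefore not run. Having 2 libraries a group limits what can be called: limma standard errors of the abundant members were mostly 0.12 to 0.16 on the log2 scale, and 0.36 for PSMB9 with its few reads.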
